A study of Homo sapiens with 12 samples.

Results

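Integrins and laminins were read out here as 39 genes, the rows of the authors' gene table whose symbol names an integrin α subunit (18 genes), an integrin β subunit (8), a laminin α (5), β (4) or γ chain (3), or BCAM, a further laminin receptor. They are 39 of 28813 rows of that table, matched by symbol alone. The cells were of the established line MKL-1, derived from a Merkel cell carcinoma (a neuroendocrine skin cancer) and grown in RPMI medium with serum, and RNA was captured by its polyA tail and sequenced. Cells received EPZ011989 at 3 µM in 1% ethanol or only the 1% ethanol that served as vehicle, with fresh medium every 3 days, and were collected after 6 or 12 days. EPZ011989 blocks EZH2, the enzyme of Polycomb repressive complex 2 that methylates histone H3 at silent genes. The 4 groups were therefore EPZ011989 at day 6, vehicle at day 6, EPZ011989 at day 12 and vehicle at day 12, with 3 libraries each. All were cells of 1 line, and all had ethanol in the medium.

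Integrins are receptors made of 1 α and 1 β subunit, and the pairing decides which matrix protein is bound. The α3, α6 and α7 subunits with β1, and α6 with β4, bind laminins. The αV and α5 receptors and αIIbβ3 bind proteins that carry the RGD tripeptide, α1, α2, α10 and α11 bind collagens, and the β2 and β7 receptors belong to leukocytes. Laminins are secreted trimers of an α, a β and a γ chain and form the sheet on which a basement membrane is built. The laminin name gives the 3 chains in order, so that laminin-511 is α5, β1 and γ1.

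The 12 libraries held 15994997 to 20866370 estimated reads, and the 39 genes took 0.0657 to 0.0849% of the reads assigned to genes. Values are given as CPM (a gene's reads scaled to the library's total over all genes) within a gene and as TPM (scaled by transcript length, summed over protein-coding transcripts) between genes. A floor of 3 reads stood at 0.148 to 0.194 CPM, depending on the library. Whether the 3 libraries of a group were grown as separate cultures is not stated, and every p-value refers to the spread among those libraries, which could be technical only. Replicate 1 of vehicle at day 12 stood apart from the other day 12 vehicle libraries on the third principal component of all genes, at -30.9 against -12.4 and 2.31. The line's own markers were present in every group, with summed levels of 3094 to 3170 CPM in EPZ011989 and 3611 to 3697 CPM in vehicle at day 6, and 3231 to 3441 CPM in EPZ011989 and 3221 to 3553 CPM in vehicle at day 12. All 11 of these markers were tested, and 1 was higher and 7 lower at day 6, and 3 higher and 4 lower at day 12. Leukocyte, endothelial and keratinocyte markers stayed at summed levels of 1.57 to 11.8 CPM. The list of 7 fibroblast markers, led by DCN, stood at 21.9 to 29.9 CPM in EPZ011989 and 15.0 to 20.2 CPM in vehicle at day 6, and at 18.2 to 20.9 CPM in EPZ011989 and 9.66 to 14.6 CPM in vehicle at day 12. Of its 4 tested genes 1 was higher at day 6 and 2 at day 12 (DCN and COL1A1), and LUM was near 0 in every group. COL1A1 of that list averaged 4.72 CPM in EPZ011989 and 0.316 CPM in vehicle at day 12. Of the 4 tested endothelial markers 1 was higher at day 6, and 2 were higher and 1 lower at day 12. The part of these markers in the results was not tested.

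Of the 39 genes, 24 had enough reads to be tested and 15 did not. At day 6, edgeR's quasi-likelihood test called 9 of the 24 higher and 5 lower in EPZ011989 (Benjamini-Hochberg adjusted p under 0.05), where 17.1% of all 15024 tested genes were higher and 17% lower. At day 12 it called 12 higher and 8 lower, against 33.7% and 33.2% of all genes, and without replicate 1 of vehicle at day 12 it called 12 higher and 7 lower, ITGAE being lost. Counting only changes of at least 2-fold, 7 were higher and 2 lower at day 6, against 7.1% and 0.692% of all genes, and 7 higher and 6 lower at day 12, against 16.4% and 9.09%. The median log2 change of the 24 was 0.09 at day 6 and 0.38 at day 12, and that of all tested genes -0.02 and 0.02. Among the genes that moved, BCAM, ITGB8, ITGA6, ITGA9 and LAMC1 rose at least 2-fold at both days. ITGAV and ITGB3 were raised at day 6 only or mainly. LAMA3, LAMB1, ITGB1, ITGB4 and ITGA2B were lowest in EPZ011989 at day 12. LAMA4 was at least 2-fold lower at both days, and LAMA5 and ITGA3 reached a 2-fold rise at day 12 only. The remaining called genes are given below. Because bulk RNA was measured, fewer cells with a transcript and less of it per cell cannot be told apart.

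**Figure D1:**
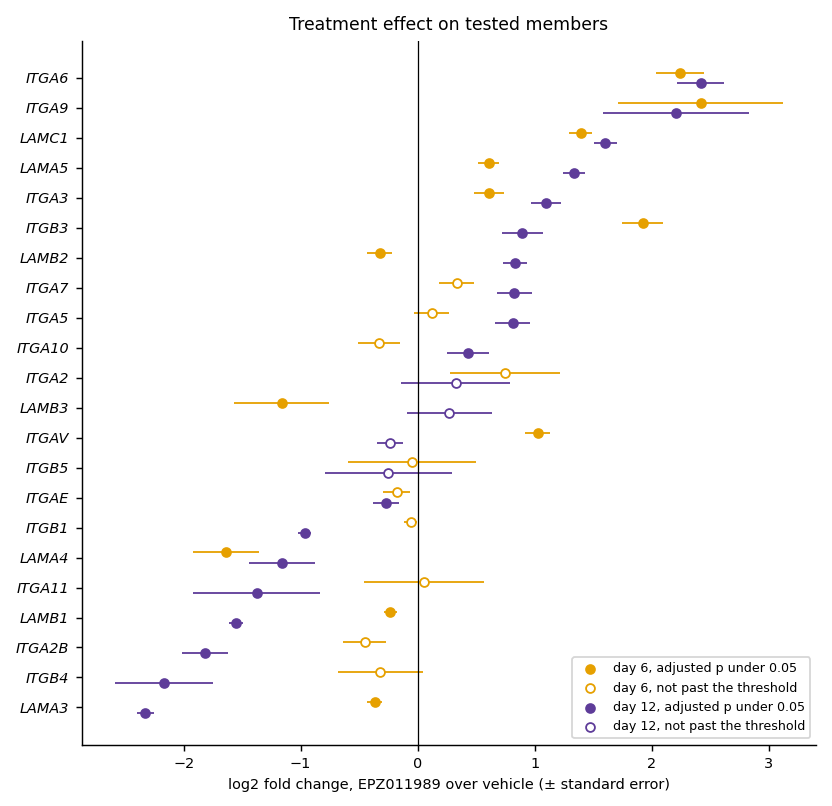
Log2 fold change of EPZ011989 over vehicle (x axis, ± standard error) for 22 tested genes, with day 6 in yellow and day 12 in violet and filled points for calls at an adjusted p under 0.05. BCAM and ITGB8 are left out because vehicle held almost no reads. LAMA3, LAMB1 and ITGB1 lie further to the left at day 12, and ITGAV and ITGB3 further to the right at day 6.

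The promoters of BCAM, ITGB8, LAMC1 and ITGA6 are shown because these 4 genes rose at least 2-fold at both days and kept the call under every alternative run. Each line gives 250 bases before and 50 after the annotated start in RefSeq (GRCh38.p14), 5′ to 3′ on the plus strand, with CG dinucleotides in capitals.
BCAM promoter, chr19:44808809-44809108: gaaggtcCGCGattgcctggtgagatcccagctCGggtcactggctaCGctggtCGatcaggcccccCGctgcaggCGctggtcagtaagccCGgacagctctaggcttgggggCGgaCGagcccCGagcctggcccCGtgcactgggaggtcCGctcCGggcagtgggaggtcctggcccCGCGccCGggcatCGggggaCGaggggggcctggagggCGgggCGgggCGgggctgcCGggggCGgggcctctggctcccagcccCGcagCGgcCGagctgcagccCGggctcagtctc
ITGB8 promoter, chr7:20330650-20330949: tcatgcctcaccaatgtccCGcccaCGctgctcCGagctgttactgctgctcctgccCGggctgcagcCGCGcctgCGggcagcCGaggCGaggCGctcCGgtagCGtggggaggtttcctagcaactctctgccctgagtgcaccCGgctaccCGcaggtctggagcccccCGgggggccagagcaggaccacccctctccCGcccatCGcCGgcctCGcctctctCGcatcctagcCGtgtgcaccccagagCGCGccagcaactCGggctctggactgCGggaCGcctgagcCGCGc
LAMC1 promoter, chr1:183023170-183023469: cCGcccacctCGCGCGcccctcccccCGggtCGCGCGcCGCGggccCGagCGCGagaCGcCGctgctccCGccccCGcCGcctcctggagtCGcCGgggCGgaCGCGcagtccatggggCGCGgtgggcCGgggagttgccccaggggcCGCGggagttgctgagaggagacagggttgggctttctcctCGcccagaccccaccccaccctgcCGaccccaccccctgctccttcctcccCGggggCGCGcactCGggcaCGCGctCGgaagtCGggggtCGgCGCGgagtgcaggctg
ITGA6 promoter, chr2:172427086-172427385: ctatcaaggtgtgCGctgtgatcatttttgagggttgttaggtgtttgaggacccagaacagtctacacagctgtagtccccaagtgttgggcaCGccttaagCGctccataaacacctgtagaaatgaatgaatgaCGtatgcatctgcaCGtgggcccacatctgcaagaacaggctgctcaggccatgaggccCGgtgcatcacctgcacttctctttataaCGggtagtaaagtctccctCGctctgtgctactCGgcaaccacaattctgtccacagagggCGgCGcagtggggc
The windows held 28 CG dinucleotides for BCAM, 28 for ITGB8, 41 for LAMC1 and 11 for ITGA6. The median of all 35116 promoters of this length was 14, and that of the 27 integrin and laminin genes with an entry was 15. At least 20 were found in 41.2% of all promoters and in 11 of the 27. The transcript with the most reads started 0 bases from the annotated start for BCAM, 40 for LAMC1, 223 for ITGB8 and 453 for ITGA6, so the windows of ITGB8 and ITGA6 do not hold that start. The letters GGGCGG (the GC box) stood on either strand in all 4 windows, in 15 of the 27 and in 45.0% of all promoters. TATAAA stood in the ITGA6 window alone among the 27 and in 11.5% of all promoters. The AP-1 motif TGANTCA stood in the windows of ITGA5 and LAMA3 and in 7.71% of all promoters. The transcript with the most reads started 13150 bases from the annotated start for ITGA5 and 183577 for LAMA3. Their windows thus do not hold that start. The GC box was counted separately from CG, with which its letters overlap.

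Of the laminin-binding integrin α subunits, ITGA6 rose most. ITGA6 (chromosome 2, 172427354 to 172506282, plus strand of GRCh38) encodes α6, the subunit that pairs with β1 or β4. At day 6 it had 8.87, 7.37 and 9.70 CPM in EPZ011989, against 1.60, 1.68 and 2.17 CPM in vehicle. After 12 days it had 13.9, 12.4 and 10.1 CPM in EPZ011989, against 1.87, 2.35 and 2.58 CPM in vehicle. All treated libraries lay above all vehicle libraries at both days. The log2 change was 2.25 ± 0.20 at day 6 (adjusted p = 1.19e-06) and 2.42 ± 0.20 at day 12 (adjusted p = 7.53e-08), or 4.74-fold and 5.35-fold. The difference between the days was 0.17 ± 0.29 (adjusted p = 0.65). An antisense gene, ITGA6-AS1, overlaps its exons, and without knowledge of strand reads of the pair cannot be told apart.

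ITGA3 (chromosome 17, 50055968 to 50090481, plus strand), which encodes the α3 subunit of epithelial laminin receptors, was higher in reads at both days, a call lost with transcript lengths as an offset. It had 13.8, 14.6 and 12.2 CPM in EPZ011989, against 9.89, 9.39 and 7.24 CPM in vehicle at day 6. At day 12 the values were 19.3, 19.5 and 22.2 CPM in EPZ011989, against 9.14, 9.19 and 10.1 CPM in vehicle. Per length, its mean level was 4.07 TPM in EPZ011989 and 3.36 TPM in vehicle at day 6, and 6.57 TPM in EPZ011989 and 3.29 TPM in vehicle at day 12. Treated and vehicle libraries did not overlap in CPM, and the log2 change was 0.61 ± 0.13 (adjusted p = 0.00212) at day 6 and 1.10 ± 0.13 (adjusted p = 2.62e-06) at day 12. With transcript lengths as an offset the change was -0.33 at day 6 and 0.34 at day 12, neither past the threshold (adjusted p = 0.65 and 0.529), so its direction at day 6 depends on that setting. ITGA7 (chromosome 12, 55684568 to 55716043, minus strand), which encodes α7, known as the laminin receptor subunit of muscle, had 9.47, 11.0 and 9.16 CPM in EPZ011989, against 4.57, 5.72 and 6.38 CPM in vehicle at day 12. The ranges were apart and the log2 change was 0.83 ± 0.15 (adjusted p = 1.91e-04). At day 6 ITGA7 averaged 8.95 ± 0.185 CPM in EPZ011989 and 7.10 ± 0.390 CPM in vehicle (SD, n = 3 each), which did not pass the test (adjusted p = 0.0957). Its exons overlap those of BLOC1S1 on the other strand.

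The β partners of these subunits went the other way by day 12. ITGB1 (chromosome 10, 32900319 to 33005792, minus strand), the β1 subunit shared by most α subunits, had the highest CPM of the 39 genes in every group. It had 339.7, 338 and 322 CPM in EPZ011989, against 366, 345 and 330.5 CPM in vehicle at day 6. By day 12 it had 202, 205 and 189 CPM in EPZ011989, against 412, 391 and 359 CPM in vehicle. The groups overlapped at day 6 and stood well apart at day 12, where ITGB1 fell by 1.95-fold. The log2 change was -0.06 ± 0.054 at day 6 (adjusted p = 0.432) and -0.97 ± 0.055 at day 12 (adjusted p = 9.95e-10), and the difference between the days was -0.91 ± 0.077 (adjusted p = 3.14e-07). Nearly all of its reads lay in 1 transcript, ITGB1-201. Its lead in CPM was narrow in EPZ011989 at day 12, where LAMA5 averaged 179 ± 1.36 CPM and ITGB1 198 ± 8.51 CPM (SD, n = 3 each). CPM makes no allowance for transcript length. Per length, ITGB1 averaged 109 TPM and LAMA5 24.4 TPM in that group, so the lead was wide.

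ITGB4 (chromosome 17, 75721328 to 75757818, plus strand) encodes β4, the partner of α6 in hemidesmosomes, the junctions that fasten epithelia to laminin. It had 2.01, 2.76 and 2.77 CPM in EPZ011989, against 2.21, 3.10 and 4.07 CPM in vehicle at day 6. The day 12 values were 0.358, 0.302 and 0.899 CPM in EPZ011989, against 2.32, 1.85 and 2.83 CPM in vehicle. The groups overlapped at day 6 only. The log2 change was -0.32 ± 0.37 (adjusted p = 0.545) at day 6 and -2.17 ± 0.42 (adjusted p = 3.74e-04) at day 12, with a difference of -1.85 ± 0.56 (adjusted p = 0.0135). ITGA6 and ITGB4 thus moved in opposite directions at day 12.

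**Figure D2:**
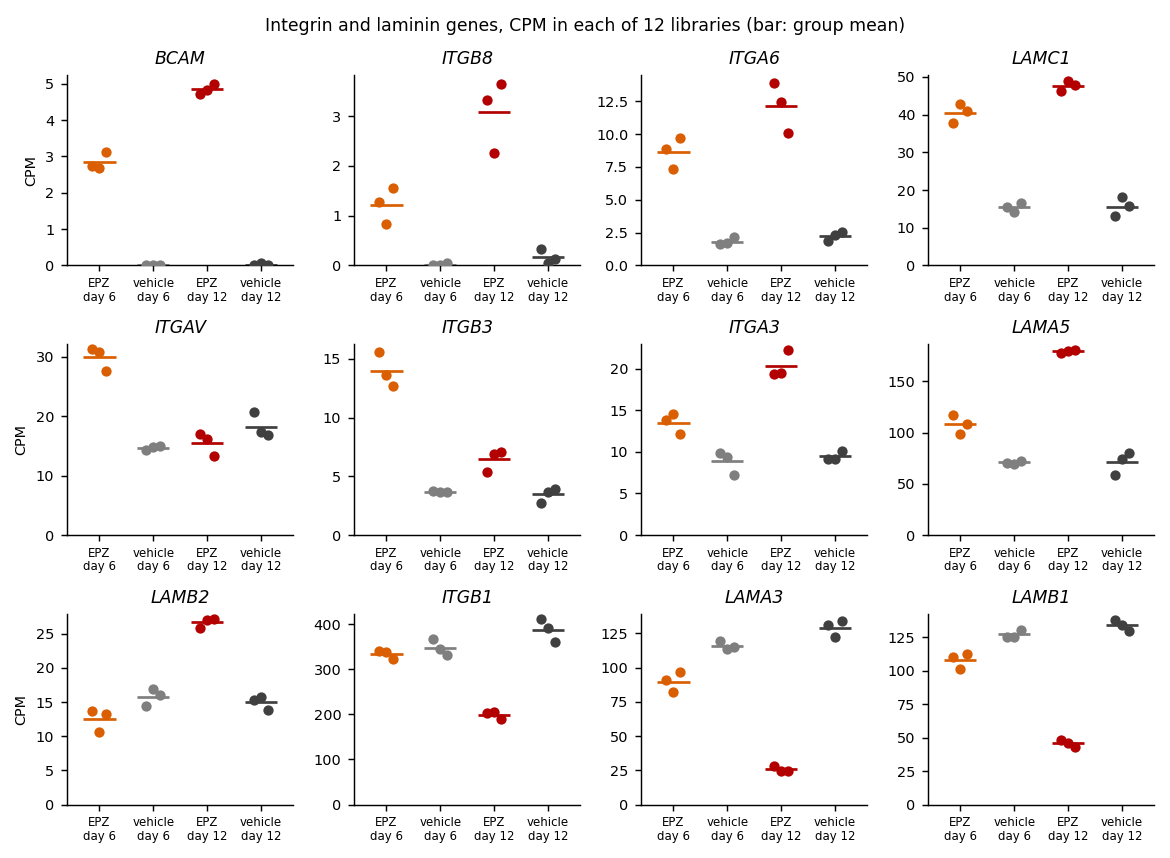
CPM (y axis) of 12 integrin and laminin genes in each library, with EPZ011989 left of vehicle at each day and a bar at the mean of 3 libraries. BCAM and ITGB8 are near 0 in vehicle, ITGAV and ITGB3 are highest in EPZ011989 at day 6, and ITGB1, LAMA3 and LAMB1 are lowest in EPZ011989 at day 12.

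The genes of αV and of its partners β3 and β8 were raised at day 6. ITGAV (chromosome 2, 186590065 to 186680901, plus strand) encodes αV, which pairs with β1, β3, β5, β6 or β8 and binds fibronectin, vitronectin and latent TGF-β. It had 31.2, 30.8 and 27.6 CPM in EPZ011989, against 14.4, 14.8 and 14.9 CPM in vehicle at day 6. At 12 days there were 16.9, 16.2 and 13.3 CPM in EPZ011989, against 20.7, 17.3 and 16.8 CPM in vehicle. The treated libraries were all above vehicle at day 6, and the groups overlapped at day 12. The log2 change was 1.02 ± 0.11 (adjusted p = 5.29e-06) at day 6 and -0.24 ± 0.11 (adjusted p = 0.0712) at day 12, and the days differed by -1.26 ± 0.15 (adjusted p = 1.19e-05).

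ITGB3 (chromosome 17, 47253846 to 47311816, plus strand), the β3 partner of αV and αIIb, followed a similar course but stayed above vehicle. It had 15.6, 13.6 and 12.7 CPM in EPZ011989, against 3.76, 3.64 and 3.64 CPM in vehicle at day 6. After 12 days it had 5.37, 6.94 and 7.08 CPM in EPZ011989, against 2.77, 3.70 and 3.93 CPM in vehicle. No treated library reached down to vehicle at either day. ITGB3 rose by 1.92 ± 0.17 on the log2 scale at day 6 (adjusted p = 1.10e-06) and by 0.90 ± 0.18 at day 12 (adjusted p = 4.46e-04), a difference of -1.03 ± 0.25 (adjusted p = 0.00336).

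ITGB8 (chromosome 7, 20330702 to 20415754, plus strand), the β8 partner of αV that binds latent TGF-β, had 1.27, 0.834 and 1.56 CPM in EPZ011989, against 0, 0 and 0.0528 CPM in vehicle at day 6. By day 12 it had 3.33, 2.26 and 3.65 CPM in EPZ011989, against 0.322, 0.0560 and 0.129 CPM in vehicle. Every treated library was above every vehicle library, and vehicle held 1 read over 3 libraries at day 6 and 8 at day 12. The ratio of summed reads at day 12, 175 against 8, was 18.7 (exact 95% interval 9.28 to 44.0, for counting error only), and edgeR gave an adjusted p of 8.71e-05 at day 6 and 1.66e-05 at day 12. Within EPZ011989, ITGB8 was higher at day 12 than at day 6 by 1.32 ± 0.46 on the log2 scale (adjusted p = 0.0228). Within vehicle, on few reads, the same change was 2.785 ± 1.037 and did not pass the test (adjusted p = 0.0857). The effect of EPZ011989 differed between the days by -1.461 ± 1.075, which did not pass either (adjusted p = 0.285). ITGB5, the β5 partner, lay between 0.225 and 0.739 CPM in all libraries and passed no test.

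ITGA2B (chromosome 17, 44372180 to 44389505, minus strand) encodes αIIb, the platelet fibrinogen receptor subunit that pairs with β3. It had 4.90, 5.45 and 4.56 CPM in EPZ011989, against 6.79, 7.28 and 6.34 CPM in vehicle at day 6. The day 12 values were 1.94, 1.41 and 1.85 CPM in EPZ011989, against 5.54, 6.05 and 6.83 CPM in vehicle. The groups did not overlap at either day, but only day 12 passed the test, at -1.82 ± 0.20 (adjusted p = 1.23e-06), against -0.45 ± 0.18 (adjusted p = 0.0692) at day 6. Coding transcripts held 70.1% of ITGA2B reads in EPZ011989 and 48.2% in vehicle at day 6. Their mean level was 2.02 TPM in EPZ011989 and 1.64 TPM in vehicle, so the day 6 direction depends on the transcripts counted. At day 12 this level was 0.788 TPM in EPZ011989 and 2.36 TPM in vehicle. The platelet marker list was at 11.4 to 18.9 CPM in EPZ011989 and 5.99 to 7.54 CPM in vehicle at day 12, nearly all of it GP1BA, and the platelet genes PF4, PPBP and GP9 had no read in any library.

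ITGA5 (chromosome 12, 54395261 to 54419460, minus strand), the α5 subunit of the fibronectin receptor, had 16.9, 19.1 and 22.5 CPM in EPZ011989, against 11.6, 11.2 and 10.6 CPM in vehicle at day 12. The groups did not overlap, and the log2 change was 0.81 ± 0.15 (adjusted p = 2.38e-04), while at day 6 ITGA5 averaged 13.7 ± 0.739 CPM in EPZ011989 and 12.6 ± 2.73 CPM in vehicle (adjusted p = 0.581). However, 2.44% of its reads lay in protein-coding transcripts, and most lay in ITGA5-211, a transcript with a retained intron. The same held for ITGAE, the αE subunit of intraepithelial lymphocytes, with 3.17% of reads in coding transcripts and most in a 672-base processed transcript. ITGAE averaged 9.60 ± 0.380 CPM in EPZ011989 and 11.6 ± 0.371 CPM in vehicle at day 12, a log2 change of -0.27 ± 0.11 (adjusted p = 0.049), and this call was lost when any 1 of the 12 libraries other than replicate 2 of EPZ011989 at day 6 was left out.

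**Figure D3:**
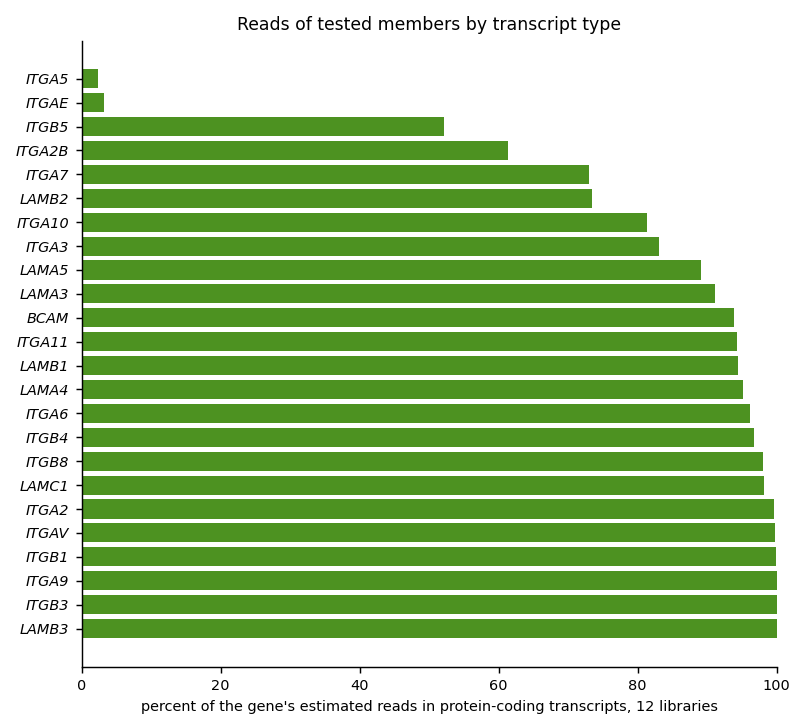
Percent of each tested gene's estimated reads, summed over 12 libraries, that lay in transcripts annotated as protein-coding (x axis, from 0 to 100). ITGA5 and ITGAE stand at 2.44% and 3.17%, and most of the other genes are above 80%.

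Among the collagen-binding subunits, ITGA10 was higher and ITGA11 lower at day 12, and neither call held under every alternative. ITGA10 (chromosome 1, 145891208 to 145910189, minus strand), the cartilage collagen receptor α10, had 9.62, 7.94 and 9.44 CPM in EPZ011989, against 7.53, 6.73 and 5.73 CPM in vehicle at day 12. The groups did not overlap, but the call rested on single libraries, with a log2 change of 0.43 ± 0.18 (adjusted p = 0.0446) and 0.34 without replicate 3 of vehicle at day 12 (adjusted p = 0.141). ITGA11, which encodes α11, had 0.563, 0.151 and 0.562 CPM in EPZ011989, against 0.837, 1.57 and 0.902 CPM in vehicle at day 12. The groups did not overlap but held few reads, and the log2 change of -1.38 ± 0.54 (adjusted p = 0.0371) was -0.15 with transcript lengths as an offset (adjusted p = 0.94). The summed reads of ITGA11 were 0.565 times the authors' value. In the authors' table, tested with limma on the log2(value + 1) scale, ITGA11 changed by -0.65 at day 12 (adjusted p = 0.65). ITGA2, the α2 subunit, lay between 0.475 and 2.06 CPM and passed no test. ITGA9, which encodes α9, a receptor of tenascin and osteopontin, had 38 reads in EPZ011989 and 7 in vehicle at day 6, a ratio of 5.64 (exact 95% interval 2.49 to 15.0). At day 12 it had 73 reads in EPZ011989 and 13 in vehicle, a ratio of 4.80 (2.64 to 9.44), and edgeR gave an adjusted p of 0.0158 at day 6 and 0.00615 at day 12. The day 6 call was lost without replicate 1 or 2 of vehicle or replicate 1 of EPZ011989 at that day, at an adjusted p of 0.0637, 0.0721 and 0.0655. It was also lost at a threshold of 0.01 and with transcript lengths as an offset (log2 change 2.06, adjusted p = 0.0594). With limma on the authors' table at a pseudocount of 5 the day 6 change was 1.07 (adjusted p = 0.055).

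BCAM (chromosome 19, 44809059 to 44821421, plus strand) encodes the Lutheran glycoprotein, an immunoglobulin-type receptor that binds laminins with an α5 chain. It had 2.74, 2.69 and 3.12 CPM in EPZ011989 at day 6, against no read in the 3 vehicle libraries. At 12 days there were 4.71, 4.83 and 5.00 CPM in EPZ011989, against 0, 0.0560 and 0 CPM in vehicle. The treated libraries lay close together at each day and far from vehicle, which held 1 read at day 12, against 277 in EPZ011989. The ratio at day 12 was 237 with an exact 95% interval of 42.1 to 9382, and edgeR gave an adjusted p of 1.13e-06 at day 6 and 1.08e-07 at day 12. Within EPZ011989 the log2 difference of day 12 over day 6 was 0.76 ± 0.31 (adjusted p = 0.0513). Per length, BCAM reached 1.54 ± 0.0901 TPM in EPZ011989 at day 6 and 3.23 ± 0.508 TPM at day 12. Over the same groups LAMA5, the chain of its ligand, averaged 14.2 ± 1.23 TPM in EPZ011989 at day 6 and 24.4 ± 0.284 TPM at day 12.

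The laminin α chains moved in opposite directions. LAMA5 (chromosome 20, 62307955 to 62367312, minus strand), the α5 chain of laminin-511 and laminin-521, had 117, 98.4 and 108 CPM in EPZ011989, against 70.7, 69.4 and 72.7 CPM in vehicle at day 6. After 12 days it had 178, 180.1 and 180.4 CPM in EPZ011989, against 58.6, 74.5 and 80.2 CPM in vehicle. All treated libraries were above all vehicle libraries, by 0.61 ± 0.091 on the log2 scale at day 6 (adjusted p = 1.34e-04) and 1.34 ± 0.091 at day 12 (adjusted p = 7.46e-09). The days differed by 0.73 ± 0.13 (adjusted p = 2.98e-04). Exons of LAMA5 overlap those of ADRM1 and LAMA5-AS1 on the other strand.

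LAMA3 (chromosome 18, 23689443 to 23956222, plus strand) encodes α3, the chain of epithelial laminins. It had 90.8, 81.9 and 96.7 CPM in EPZ011989, against 119, 114 and 115 CPM in vehicle at day 6. By day 12 it had 27.8, 24.7 and 24.6 CPM in EPZ011989, against 131, 122.1 and 134 CPM in vehicle. The groups were apart at both days and much further at day 12, where LAMA3 fell by 5.02-fold. The log2 change was -0.37 ± 0.067 (adjusted p = 6.42e-04) at day 6 and -2.33 ± 0.072 (adjusted p = 1.48e-12) at day 12, and the difference of -1.96 ± 0.10 (adjusted p = 2.17e-09) was the largest fall between the days among the 24 genes. With transcript lengths as an offset the day 6 change of LAMA3 was -0.39 and did not pass the threshold (adjusted p = 0.0536). Most of its reads, 84.8 to 92.5% by group, lay in LAMA3-202, a transcript of 10661 bases.

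LAMA4 (chromosome 6, 112108760 to 112254939, minus strand), the α4 chain known from vessels, was lower at both days. It had 3.58, 4.36 and 2.31 CPM in EPZ011989, against 8.84, 11.8 and 11.3 CPM in vehicle at day 6. The day 12 values were 4.81, 2.71 and 2.53 CPM in EPZ011989, against 8.30, 8.63 and 5.54 CPM in vehicle. Every treated library was below vehicle, and the log2 change was -1.64 ± 0.28 (adjusted p = 4.35e-04) at day 6 and -1.16 ± 0.28 (adjusted p = 0.00224) at day 12. With transcript lengths as an offset the day 6 change of LAMA4 was -1.31 and did not pass the threshold (adjusted p = 0.138). The summed reads were 0.445 times the authors' value for this gene. In the authors' table, tested with limma on the log2(value + 1) scale, LAMA4 changed by -0.98 at day 6 (adjusted p = 0.0598) and by -2.33 at day 12 (adjusted p = 6.50e-05).

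Per length, the α5 chain made up 51.0 ± 2.54% of all laminin α TPM in EPZ011989 and 28.8 ± 2.20% in vehicle at day 6 (SD, n = 3 each). At day 12 it made up 82.3 ± 2.52% in EPZ011989 and 30.0 ± 6.11% in vehicle. The α3 chain made up 14.3 ± 2.39% in EPZ011989 and 61.9 ± 6.15% in vehicle at day 12. The summed α level was 29.7 ± 1.24 TPM in EPZ011989 and 30.7 ± 2.01 TPM in vehicle at day 12, a difference within the SD of either group. Over all transcripts, coding or not, α5 was already the main chain in vehicle, with 73.8% in EPZ011989 and 56.5% in vehicle at day 6, and 94.8% in EPZ011989 and 62.2% in vehicle at day 12. The rank of α3 and α5 in vehicle thus depends on the transcripts counted, and the higher α5 share in EPZ011989 does not.

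**Figure D4:**
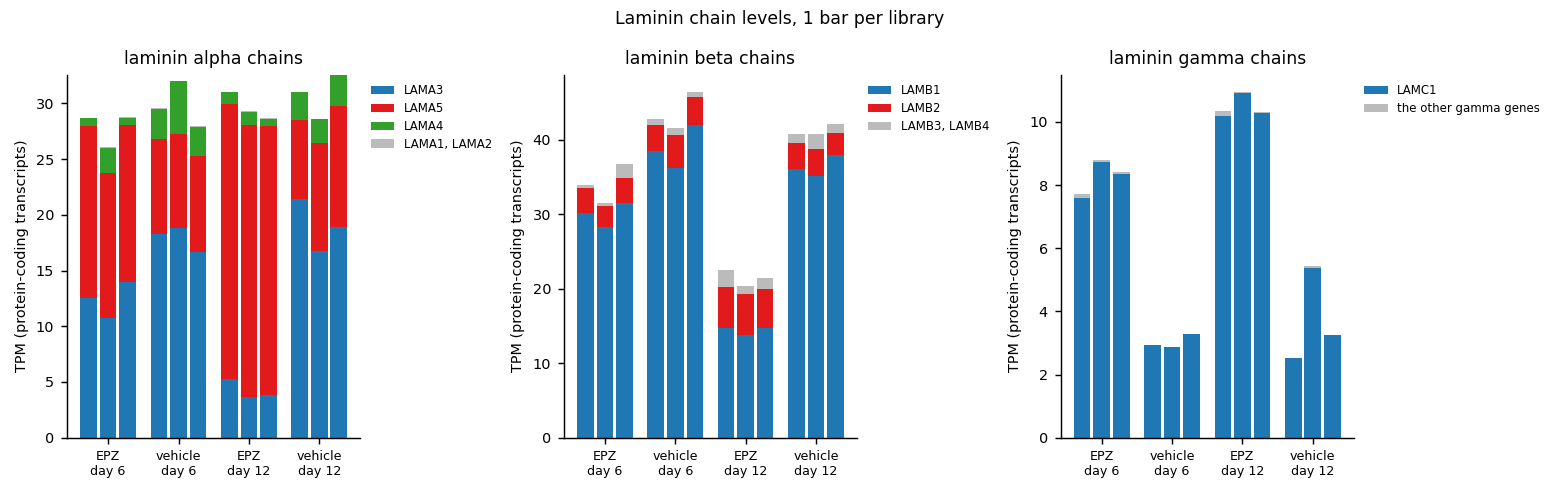
TPM of the laminin α, β and γ chains (y axes, protein-coding transcripts), stacked in 1 bar per library, with EPZ011989 left of vehicle at each day. LAMA5 fills most of the α bars in EPZ011989 at day 12, the β bars are lowest there, and LAMC1 is higher in EPZ011989 than in vehicle at both days.

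Among the β chains, LAMB1 (chromosome 7, 107923799 to 108003255, minus strand), the β1 chain, was the most abundant by coding transcripts and fell. It had 109.9, 101 and 113 CPM in EPZ011989, against 125, 125 and 131 CPM in vehicle at day 6. At 12 days there were 48.3, 45.7 and 43.0 CPM in EPZ011989, against 138, 134 and 129.7 CPM in vehicle. All treated libraries were below vehicle, and the log2 change was -0.24 ± 0.055 (adjusted p = 0.00418) at day 6 and -1.55 ± 0.057 (adjusted p = 8.85e-12) at day 12, a difference of -1.32 ± 0.079 (adjusted p = 1.06e-08).

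LAMB2 (chromosome 3, 49121114 to 49133118, minus strand), the β2 chain of laminins at synapses and in kidney, went up at day 12. It had 13.7, 10.6 and 13.3 CPM in EPZ011989, against 14.4, 16.9 and 16.0 CPM in vehicle at day 6. After 12 days it had 25.8, 27.1 and 27.1 CPM in EPZ011989, against 15.3, 15.7 and 13.9 CPM in vehicle. The treated libraries were all above vehicle at day 12 and all below at day 6, with log2 changes of 0.83 ± 0.11 (adjusted p = 6.55e-06) and -0.33 ± 0.11 (adjusted p = 0.0307). With transcript lengths as an offset the day 6 change was 0.22 (adjusted p = 0.664), so no direction is given for that day. Coding transcripts held 63.04% of its reads in EPZ011989 and 73.9% in vehicle at day 12, the rest lying mainly in transcripts with retained introns.

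LAMB3, the β3 chain of epithelial laminins, had 0.980, 0.321 and 0.577 CPM in EPZ011989, against 1.21, 1.19 and 1.90 CPM in vehicle at day 6. By day 12 it had 2.40, 1.86 and 2.92 CPM in EPZ011989, against 1.93, 2.02 and 2.00 CPM in vehicle. The groups were apart at day 6 and overlapped at day 12, with log2 changes of -1.16 ± 0.40 (adjusted p = 0.0381) and 0.27 ± 0.36 (adjusted p = 0.529). The day 6 call was lost without any 1 vehicle library of that day, without replicate 2 or 3 of EPZ011989 at that day, without replicate 1 of EPZ011989 at day 12, with no low-count filter and with the offset, at adjusted p between 0.0524 and 0.592. Per length, the β2 chain made up 25.4 ± 1.91% of laminin β TPM in EPZ011989 and 8.20 ± 1.07% in vehicle at day 12, and 59.7% in EPZ011989 and 21.6% in vehicle over all transcripts. The summed β level was 21.4 ± 1.10 TPM in EPZ011989 and 41.2 ± 0.749 TPM in vehicle.

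LAMC1 (chromosome 1, 183023460 to 183145592, plus strand), the γ1 chain found in most laminins, rose at both days. It had 37.9, 42.9 and 40.9 CPM in EPZ011989, against 15.4, 14.3 and 16.6 CPM in vehicle at day 6. The day 12 values were 46.3, 48.9 and 47.9 CPM in EPZ011989, against 13.2, 18.0 and 15.7 CPM in vehicle. The lowest treated library was at 37.9 CPM and the highest vehicle library at 18.0 CPM. The log2 change was 1.39 ± 0.10 at day 6 (adjusted p = 1.05e-07) and 1.60 ± 0.10 at day 12 (adjusted p = 3.38e-09), and the days differed by 0.21 ± 0.14 (adjusted p = 0.241). LAMC3, the γ3 chain, had 12 reads over the 3 libraries of EPZ011989 at day 12, and 0 reads in those of vehicle.

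LAMC1 thus rose while LAMB1, its most abundant β partner in coding transcripts, fell. The ratio of LAMC1 to LAMB1 plus LAMB2 was 0.249 ± 0.0281 in EPZ011989 and 0.0709 ± 0.000942 in vehicle at day 6, and 0.528 ± 0.0313 in EPZ011989 and 0.0941 ± 0.0395 in vehicle at day 12. In every group γ was the chain class with the lowest summed TPM. Of 15 laminin trimers listed, all 3 chains reached a mean of 1 TPM for 6 in EPZ011989 and 6 in vehicle at day 6, and for 4 in EPZ011989 and 6 in vehicle at day 12. The counts in EPZ011989 each rested on 1 library, with 4 at day 6 without replicate 2 and 6 at day 12 without replicate 3. Laminin-311, laminin-321, laminin-511 and laminin-521 met this in all groups. Laminin-411 and laminin-421 turned on LAMA4, which had 0.691, 2.29 and 0.575 TPM in EPZ011989, against 2.71, 4.71 and 2.63 TPM in vehicle at day 6. Its day 12 levels were 1.07, 1.13 and 0.593 TPM in EPZ011989, against 2.48, 2.16 and 2.87 TPM in vehicle. By the matched transcripts, LAMA4 thus lay near the level of 1 TPM in EPZ011989 at both days and above it in every vehicle library. The LAMA4 reads summed here were 0.445 times the authors' value. Whether its TPM, and so the count of trimers, is too low was not tested.

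The same was done for 24 integrin pairs. Both subunits reached a mean of 1 TPM for 8 pairs in EPZ011989 and 6 in vehicle at day 6, and for 6 in EPZ011989 and 6 in vehicle at day 12. The pairs of ITGB1 with ITGA3, ITGA7, ITGA10 and ITGAV, and of ITGAV with ITGB3, met this in every group. ITGA6 with ITGB1 met it in EPZ011989 only, with ITGA6 at 2.56 ± 0.369 TPM in EPZ011989 and 0.569 ± 0.0790 TPM in vehicle at day 6, and 3.94 ± 0.622 TPM in EPZ011989 and 0.864 ± 0.367 TPM in vehicle at day 12. Over all transcripts ITGA6 in vehicle at day 12 was at 1.19 TPM and so passed this level, as it did in coding transcripts without replicate 1 of that group, where 8 pairs met it. ITGA6 with ITGB4 met it only in EPZ011989 at day 6 (not without replicate 2, and also in vehicle at day 12 without replicate 1), and ITGA2B with ITGB3 in all groups but EPZ011989 at day 12. No pair of ITGB2 or ITGB7, the leukocyte subunits, met it.

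In all groups ITGB1 exceeded the sum of its α partners. The ratio of ITGB1 to that sum was 7.53, 7.88 and 8.49 in the libraries of EPZ011989, against 15.0, 11.1 and 13.2 in those of vehicle at day 6. At day 12 it was 4.60, 5.37 and 4.42 in EPZ011989, against 12.6, 13.9 and 14.9 in vehicle. The treated libraries were below all vehicle libraries at both days. The summed α partners stood at 22.8 ± 1.61 TPM in EPZ011989 and 14.0 ± 1.59 TPM in vehicle at day 12. Over all transcripts the mean ratio was 1.36 in EPZ011989 and 4.69 in vehicle. The laminin-binding subunits made up 56.5 ± 4.46% of integrin α TPM in EPZ011989 and 35.3 ± 2.76% in vehicle at day 12, and the RGD-binding ones 27.0 ± 5.24% in EPZ011989 and 48.1 ± 3.39% in vehicle. Over all transcripts the laminin-binding share at day 12 was 23.4% in EPZ011989 and 15.7% in vehicle. The RGD-binding share leaves out most reads of ITGA5, of which 2.44% lay in coding transcripts. ITGA5 thus entered that share at 0.703 TPM in EPZ011989 and 0.431 TPM in vehicle at day 12. Whether the RGD-binding share also falls over all transcripts was not tested. At day 6 the laminin-binding share was 41.1 ± 0.410% in EPZ011989 and 41.6 ± 8.48% in vehicle, within the spread of the vehicle libraries.

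**Figure D5:**
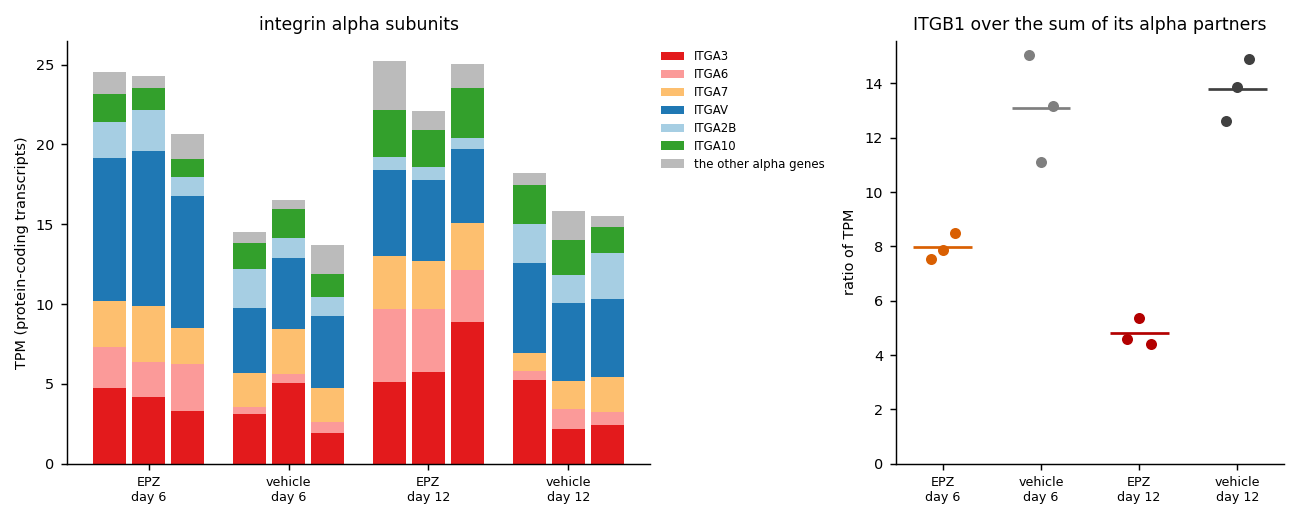
Left, TPM of integrin α subunits (y axis, protein-coding transcripts) stacked in 1 bar per library. Right, the ratio of ITGB1 TPM to the summed TPM of its α partners, with a bar at the mean of 3 libraries. EPZ011989 is left of vehicle at each day, and its ratios are below those of vehicle at both days.

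The effect of EPZ011989 differed between the days for 13 of the 24 genes, 6 with a higher and 7 with a lower effect at day 12 than at day 6, where 22.6% and 25.1% of all tested genes did so. With transcript lengths as an offset 6 of these differences did not pass the threshold, at -1.50 for ITGA2B, 0.67 for ITGA3, 0.71 for ITGA10, -1.42 for ITGB4, 0.84 for LAMB2 and 0.38 for LAMB3. Only LAMB3 was then under 0.5 times its size without the offset. In vehicle alone, day 12 against day 6, edgeR called 0 of the 24, against 13.1% of all genes in either direction (5.94% higher and 7.15% lower). At an unadjusted p under 0.05 it counted 5, against 30.8% of all genes, and DESeq2 called 1. Within EPZ011989, day 12 against day 6, 9 were higher and 7 lower, against 27.8% and 29.8% of all genes. The largest shifts within EPZ011989 were the falls of ITGB4, at -2.27 ± 0.42 (adjusted p = 3.19e-04), and LAMA3, at -1.81 ± 0.072 (adjusted p = 6.65e-11), and the rise of LAMB3, at 1.90 ± 0.40 (adjusted p = 9.07e-04). With the offset the changes of ITGB4 and LAMB3 within EPZ011989 were -1.23 (adjusted p = 0.192) and 1.14 (adjusted p = 0.21). These contrasts share libraries with those of EPZ011989 against vehicle.

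The 15 genes that could not be tested had at most 14 reads in any library. ITGA8 and ITGAD had none at all. The leukocyte subunits ITGAL, ITGAM, ITGAX, ITGB2 and ITGB7 had 0 to 13 reads summed over the 3 libraries of a group. LAMB4 had 12 reads in EPZ011989 and 0 in vehicle at day 6, and 30 reads in EPZ011989 and 1 in vehicle at day 12. LAMC3 had 20 reads in EPZ011989 and 2 in vehicle at day 6, and ITGA1 had 14 in EPZ011989 and 0 in vehicle. ITGA4, ITGB6, LAMA1 and LAMA2 had 0 to 17 reads summed over a group.

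Genes that work with integrins and laminins inside and outside the cell were counted from lists, beside the shares of all tested genes given above (17.1% higher and 17% lower at day 6, 33.7% higher and 33.2% lower at day 12). Of 16 tested basement membrane partners, 7 were higher and 1 lower at day 6, and 6 higher and 3 lower at day 12, with a median log2 change of 0.92 and 0.65. The 6 are 37.5% of the list, near the 33.7% of all genes. AGRN, the heparan sulfate proteoglycan agrin, averaged 18.6 ± 3.12 CPM in EPZ011989 and 2.30 ± 0.199 CPM in vehicle at day 12, and HSPG2 (perlecan) 42.4 ± 4.74 CPM in EPZ011989 and 7.17 ± 1.70 CPM in vehicle. Their log2 changes were 3.01 ± 0.19 (adjusted p = 3.75e-09) and 2.57 ± 0.15 (adjusted p = 1.16e-09). SPARC, a collagen-binding matrix protein, changed by 3.42 ± 0.30 (adjusted p = 1.12e-07) and FREM2, of the Fraser complex, by -1.78 ± 0.066 (adjusted p = 8.60e-12).

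Of 24 tested integrin ligands other than laminin, 9 were higher and 1 lower at day 6, and 11 higher and 3 lower at day 12, with a median of 0.47 and 0.77, and the 11 are 45.8% of the list, against 33.7% of all genes. TNC (tenascin-C, a ligand of α9 and αV receptors) averaged 1707 ± 111 CPM in EPZ011989 and 23.0 ± 4.54 CPM in vehicle at day 12, a log2 change of 6.22 ± 0.10 (adjusted p = 7.12e-15). COL6A1, a chain of collagen VI, changed by 2.94 ± 0.11 (adjusted p = 7.75e-12), CDH1 (E-cadherin, the ligand of αEβ7) by 1.29 ± 0.14 (adjusted p = 9.73e-07) and THBS1 (thrombospondin 1) by 0.87 ± 0.055 (adjusted p = 2.97e-09). Of 13 tested laminin receptors that are neither integrins nor BCAM, 2 were higher and 5 lower at day 6, and 2 higher and 8 lower at day 12, with a median of -0.05 and -0.26, and the 8 are 61.5% of the list, against 33.2% of all genes. SDC1 (syndecan 1) averaged 7.78 ± 0.699 CPM in EPZ011989 and 26.6 ± 4.86 CPM in vehicle at day 12, a log2 change of -1.77 ± 0.13 (adjusted p = 2.10e-08). RPSA, the ribosomal laminin-binding protein, changed by -0.59 ± 0.039 (adjusted p = 5.05e-09) and SV2A, a synaptic vesicle protein, by 0.71 ± 0.064 (adjusted p = 1.64e-07).

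The hemidesmosome list has 4 genes, and 2 were higher and 1 lower at each day. DST, which encodes the plakin that links α6β4 to keratin, averaged 84.9 ± 5.39 CPM in EPZ011989 and 31.2 ± 1.2 CPM in vehicle at day 6, and 412 ± 28.2 CPM in EPZ011989 and 37.3 ± 4.10 CPM in vehicle at day 12. Its log2 change was 3.46 ± 0.079 at day 12 (adjusted p = 1.03e-13). DST also has neuronal and muscle forms, and forms were not separated here. PLEC (plectin) changed by 1.57 ± 0.075 (adjusted p = 1.49e-10) and COL17A1, the transmembrane collagen of hemidesmosomes, averaged 0.0503 ± 0.0871 CPM in EPZ011989 and 1.16 ± 0.0690 CPM in vehicle at day 12 (adjusted p = 9.60e-04). CD151, the tetraspanin partner of α3β1 and α6 integrins, changed by -0.12 ± 0.13 (adjusted p = 0.436) and did not pass the test. Of 17 tested tetraspanins, 5 were higher and 2 lower at day 6, and 11 higher and 3 lower at day 12, with a median of 0.01 and 0.40, and the 11 are 64.7% of the list, against 33.7% of all genes. CD9 averaged 42.2 ± 4.84 CPM in EPZ011989 and 15.1 ± 1.13 CPM in vehicle at day 6, a log2 change of 1.48 ± 0.11 (adjusted p = 8.22e-08), and TSPAN18 changed by 5.23 ± 0.47 at day 12 (adjusted p = 1.79e-07). TSPAN5 and TSPAN12 changed by 1.66 ± 0.16 (adjusted p = 2.64e-06) and 1.34 ± 0.13 (adjusted p = 2.85e-06) at day 6.

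Of 26 tested integrin activators and adhesion adaptors, 8 were higher and 7 lower at day 6, and 10 higher and 10 lower at day 12, with a median of 0.01 and -0.03. Each 10 is 38.5% of the list, near the 33.7% and 33.2% of all genes. TNS3 (tensin 3, which binds β subunit tails) averaged 30.3 ± 0.812 CPM in EPZ011989 and 3.86 ± 1.25 CPM in vehicle at day 12, a log2 change of 2.96 ± 0.17 (adjusted p = 8.92e-10). LIMS1 (PINCH1, a partner of integrin-linked kinase) changed by -1.75 ± 0.10 (adjusted p = 7.43e-10) and ACTN4 (α-actinin 4) by -0.70 ± 0.036 (adjusted p = 2.79e-10). Of 19 tested adhesion kinases and signalling genes, 8 were higher and 3 lower at day 6, and 6 higher (31.6%) and 8 lower (42.1%) at day 12, with a median of 0.02 and -0.11. SHC1, an adaptor, changed by 1.96 ± 0.053 (adjusted p = 4.07e-13), PTK2B (the kinase PYK2) by 1.66 ± 0.12 (adjusted p = 1.71e-08), EFS, a CAS family scaffold, by -1.70 ± 0.10 (adjusted p = 1.31e-09) and GIT1 by -1.02 ± 0.066 (adjusted p = 4.09e-09). Of 13 tested genes that glycosylate dystroglycan for laminin binding, 1 was higher and 1 lower at day 6, and 4 higher (30.8%, near the 33.7% of all genes) and 1 lower (7.69%) at day 12, with a median of -0.09 and 0.12. POMT1 and B4GAT1 changed by 0.85 ± 0.08 (adjusted p = 2.52e-07) and 0.73 ± 0.092 (adjusted p = 5.97e-06) at day 12, and RXYLT1 by -0.31 ± 0.046 (adjusted p = 3.56e-05).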

How the data were processed

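RNA of 12 MKL-1 libraries in 4 groups was analysed. The deposited files hold, per transcript and library, estimated counts and TPM made by the authors with Salmon 1.2.0 on hg38, per the submitters' processing notes. FastQC and DESeq2 are named there as well. The deposited gene table holds a normalized signal of the authors, with a scaling not given in the sources used here. Effective transcript lengths come from the same deposited files. Library strand is not given either.

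Of 179883 transcripts, 168219 (93.5%) matched an identifier of GENCODE release 29 (GRCh38). Estimated counts were summed per gene and rounded. Unmatched transcripts held 3.08 to 3.58% of reads. Genes passed filterByExpr of edgeR 4.0.16 (R 4.3.3), TMM scaling and the quasi-likelihood test on all 12 libraries, two-sided, Benjamini-Hochberg adjusted over 15024 genes. Standard errors were taken as the size of the log2 fold change over the root of the F statistic. The common biological coefficient of variation was 10.1%. TPM levels sum protein-coding transcripts. Floors are 3 reads per library, and intervals are exact 95% and cover counting error only. Replicates differed by more than sampling noise, so none was counted as a repeat of another.

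Alternatives were DESeq2 1.42.0 size factors and test, no TMM, no filter, transcript lengths as offset, limma 3.58.1 on the authors' table, the libraries of a contrast alone, a threshold of 0.01, the replicate number as a block, leaving out each library and, chosen after seeing the data, TPM over all transcripts and TPM group means without each library. The script was tested on simulated data. Integrin and laminin genes, pathway lists and marker lists were chosen with earlier results of these data known. Named are members called with a change of at least 2-fold and 1 CPM, their partners, the leading gene of each class, and up to 4 genes of smallest p per list. A few genes of the pattern and of the lists are counted but not reported singly here.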

Additional observations from a re-analysis of the deposited data

Results flagged for a closer look

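The effect of EPZ011989 on 13 integrin and laminin genes differed between day 12 and day 6, by edgeR's test of the difference itself. Each value is the log2 change over vehicle at day 12 minus that at day 6, so a negative value means a lower effect at day 12. Among the integrin genes the differences were -1.85 for ITGB4, -1.37 for ITGA2B, -1.26 for ITGAV, -1.03 for ITGB3, -0.91 for ITGB1, 0.49 for ITGA3, 0.69 for ITGA5 and 0.76 for ITGA10. Among the laminin genes they were -1.96 for LAMA3, -1.32 for LAMB1, 0.73 for LAMA5, 1.16 for LAMB2 and 1.43 for LAMB3. For ITGA2B, ITGA3, ITGA10, ITGB4, LAMB2 and LAMB3 the difference did not pass the threshold with transcript lengths as an offset, at -1.50, 0.67, 0.71, -1.42, 0.84 and 0.38 in that order.

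The same test passed for genes of the pathway lists. Integrin activators and adhesion adaptors had differences of -0.45 for ACTN4 and -1.77 for LIMS1. Adhesion kinases and signalling had differences of 1.33 for SHC1, -1.18 for EFS, -0.87 for GIT1 and 1.09 for PTK2B. Basement membrane partners of laminin had differences of -0.32 for FREM2, 1.32 for HSPG2, 1.19 for AGRN and 1.61 for SPARC. Other laminin receptors had differences of -0.54 for RPSA, -1.20 for SDC1 and 0.85 for SV2A. Dystroglycan glycosylation had differences of 0.94 for POMT1, 0.83 for B4GAT1 and -0.33 for RXYLT1. Hemidesmosome partners had differences of 2.02 for DST and 0.88 for PLEC. Tetraspanins had differences of -0.58 for CD9, 2.17 for TSPAN18, -0.59 for TSPAN5 and -0.76 for TSPAN12. Other integrin ligands had differences of 3.12 for TNC, 0.52 for COL6A1, 0.21 for THBS1 and 0.79 for CDH1. The THBS1 difference changed sign with transcript lengths as an offset, at -0.14, and in the authors' table, at -0.10.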

How the results depend on the processing

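Over all alternatives, 1407 of the values for single genes among the 24 kept their direction and side of the threshold, 167 lost the call, 4 gained it and 14 changed sign. BCAM, ITGA6, ITGB8, ITGB3, LAMA5 and LAMC1 kept their calls at both days under every alternative run, as did ITGAV at day 6 and ITGB1, LAMA3, LAMB1 and LAMB2 at day 12. The 5 genes lower at day 6 numbered 3 with no filter, 3 with only the libraries of the contrast, 1 when an offset for transcript length was fitted, 3 at a threshold of 0.01 and 2 in the authors' table with limma at a pseudocount of 1 or 5. The count of genes with a higher effect at day 12 than at day 6, 6 in the main test, was 3 with the offset. It was 3 in the authors' table at either pseudocount and 2 at the stricter threshold. ITGA3, ITGA10, LAMB2 and LAMB3 lost this call with the offset and in the authors' table, so the counts of 3 are not all from the 6. The count of genes higher within EPZ011989 at day 12, 9 in the main test, was 3 with the offset, and 3 and 5 in the authors' table at pseudocounts of 1 and 5. In vehicle, 0 became 1 with DESeq2 and 1 with the replicate block. The cause of these differences was not tested.

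Leaving out 1 library at a time gave 8 to 9 higher and 3 to 6 lower at day 6, 11 to 12 higher and 6 to 8 lower at day 12, 3 to 5 with a higher and 7 with a lower effect at day 12, 0 to 2 higher in vehicle, and 6 to 10 higher and 7 lower within EPZ011989. At day 6, ITGA11 then ranged between -0.16 and 0.56 and ITGA5 between -0.027 and 0.27, and neither passed the test.

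With the offset, and in the authors' table at pseudocounts of 1 and 5, the day 6 log2 change was -0.33, -0.12 and -0.12 for ITGA3, and 0.22, 0.12 and 0.12 for LAMB2. ITGA7 at day 6 was -0.010 and -0.0098 in the authors' table. LAMB3 at day 12 was -0.25, -0.29 and -0.25. THBS1 had a difference between days of -0.14, -0.10 and -0.10, and a change in vehicle of 0.051, 0.030 and 0.030.

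Samples with the same replicate number did not deviate together (correlations -0.092 to 0.17, with 14 of 36 comparisons best at the own number). The number was therefore not used as a pairing in the main test. With 3 libraries per group, these correlations cannot show whether equal numbers were grown or collected together. With the number as a block, 70 of 73 values kept their call, 1 gained it and 2 lost it.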
